A study of Macaca mulatta with 7 samples.

Results

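The proteasome is the barrel-shaped protease that degrades proteins tagged with ubiquitin. Its core is built of stacked rings of alpha subunits (PSMA genes), which gate the entrance, and beta subunits (PSMB genes), some of which cut the substrate. The regulatory cap is built of ATPases (PSMC genes), which unfold the substrate, and non-ATPase subunits (PSMD genes), which receive it and remove the ubiquitin. Male germ cells are known for a testis form of the core, in which PSMA8 takes the place of the alpha subunit PSMA7, and for use of the activator PSME4, while cells of the immune system exchange the catalytic subunits PSMB5, PSMB6 and PSMB7 for PSMB8, PSMB9 and PSMB10.

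The members described here are the genes whose symbol begins with PSM, followed by a letter from A to G and a number. There were 47 of them among 18282 genes: 7 alpha genes and 7 beta genes of the constitutive core, PSMA8, the immune subunits PSMB8, PSMB9 and PSMB10, the thymus subunit PSMB11, 6 cap ATPases, 11 cap non-ATPases, 4 activators, the inhibitor PSMF1 and 6 assembly chaperones. PSMG2 was not analysed here. The libraries hold the total RNA of rhesus macaque (Macaca mulatta) sperm, 4 from animals labelled Control and 3 from animals labelled Maltreated, the contrast behind the study's interest in early life stress. The animals were between 5.67 and 5.92 years of age, and every sample passed through a PureSperm 40/80 density gradient and TRIzol extraction. Genotype, housing and the age at maltreatment were not given in the sources used here. The p-values measure the spread between these 7 samples, for which the labels name no separate collection or batch.

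The deposited files count reads on each annotated exon, and the sum over the exon entries of a gene on its own strand is its sense count. Depth ran from 5316383 sense counts in Control 4 to 30715268 in Maltreated 1. A count of 0 allows up to 3 counts, which is between 0.0977 CPM (sense counts normalised to library size) in Maltreated 1 and 0.564 CPM in Control 4, for counting error only. All 12 sperm and spermatid markers had counts in every library, with a summed level of 44848 to 92836 CPM. The 15 leukocyte markers summed to 767 CPM in Control 4 and 1174 CPM in Maltreated 3, against 19.2 to 80.0 CPM in the other 5 libraries, and between 11 and 15 of them had a count in each library. The 10 epithelial and accessory gland markers summed to 297 CPM in Control 2 and to at most 31.8 CPM elsewhere. In such bulk samples, fewer cells of a type and less RNA per cell cannot be told apart.

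The proteasome genes held nearly the same share of the sense counts, repeated exon entries included, in every library. The members held 0.164, 0.162, 0.173 and 0.166% of the sense counts in Control and 0.155, 0.156 and 0.179% in Maltreated libraries. Of the 47 members, 34 had a count in all 7 libraries and 13 had at least 1 library at 0. As a description, the rank order of the members' levels correlated between libraries with a Spearman coefficient of 0.631 to 0.963 (median 0.826 over 21 pairs, which share the genes and their lengths).

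Levels of single members are given per length, as CPM per kb of summed exon entries, with libraries always in the order of their numbers. By this measure the 4 highest members, PSMA4, PSMA8, PSMA7 and PSMB1, all belonged to the core. PSMA4, an alpha subunit, had the highest mean, with 113, 32.4, 92.2 and 138 in Control and 99.2, 81.2 and 98.3 in Maltreated libraries (mean 93.4 ± 32.3, SD, n = 7). It was the highest member in 5 libraries and lay above 97.2% of the 17813 genes with a count. Control 2 was its only library under 80, and PSMA8 was higher there and in Maltreated 2.

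PSMA8, the testis alpha subunit, came next among the members. Its levels were 101, 67.7, 68.0 and 75.0 in the Control libraries and 84.96, 87.5 and 85.4 in the Maltreated libraries (81.4 ± 11.98, SD, n = 7), above 96.7% of the genes with a count. The order of PSMA4 and PSMA8 is thus within their spread over libraries. PSMA7, the constitutive subunit whose place PSMA8 takes, followed with 58.4, 46.1, 88.2 and 46.7 in Control and 41.2, 83.9 and 60.7 in Maltreated libraries (60.8 ± 18.7, SD, n = 7). It stood above PSMA8 in Control 3 and just below it in Maltreated 2. In the coordinates of the files (build not given in the sources used here) PSMA8 lies on the plus strand of chromosome 18 from 14597206 to 14654568 and PSMA7 on the plus strand of chromosome 15 from 2222254 to 2229326, each with 7 exons. They are closely related genes, and how reads matching both were counted was not given in the sources used here. The split between them is uncertain.

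The remaining alpha genes spread widely. PSMA5 averaged 17.9 ± 5.44 (SD, n = 7) and PSMA1 8.48 ± 3.36 (SD, n = 7), while PSMA2 was the lowest alpha gene at 1.86 ± 1.45 (SD, n = 7). PSMA3 ranged from 0.194 in Control 4 to 38.7 in Control 3, with 9.22 and 10.1 in the other Control libraries and 6.75, 13.2 and 9.07 in the Maltreated libraries. Among the tested members its log2 CPM had the second largest SD over libraries, 1.499. In Control 3 its first 2 exons and its last 6 each held exactly 16 counts, while exons 3, 4 and 5 held 50, 26 and 21. The high value thus rests in part on equal counts along the gene and in part on these exons.

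Of the catalytic beta subunits that the immune forms replace, PSMB7 was among the abundant members and PSMB6 and PSMB5 were low. PSMB1, a structural beta subunit, led this ring with 33, 30.2, 54.3 and 40.0 in Control and 35.97, 58.1 and 42.4 in Maltreated libraries (42.0 ± 10.6, SD, n = 7), and its groups overlapped. PSMB7, which carries the trypsin-like activity, had 28.9, 28.3, 14.6 and 70.4 in Control and 27.4, 10.7 and 29.5 in Maltreated libraries (29.95 ± 19.4, SD, n = 7), highest in Control 4. PSMB6, which carries the caspase-like activity, had 2.16, 7.48, 0 and 2.00 in Control and 2.54, 0.192 and 10.2 in Maltreated libraries. PSMB5, which carries the chymotrypsin-like activity, had 1.19, 5.46, 3.40 and 0.183 in Control and 1.08, 0 and 1.09 in Maltreated libraries. PSMB7 thus stood more than an order of magnitude above both PSMB6 and PSMB5 in several libraries, among them Control 1 and Maltreated 1. In Control 2 it was closer to them, at 28.3 against 7.48 and 5.46. Each of these 3 catalytic genes had a different library at its top. PSMB3 and PSMB4 averaged 5.54 and 1.95, and PSMB2 was the lowest constitutive core gene at 0.540 ± 0.417 (SD, n = 7). From PSMA4 down to PSMB2 the mean levels of the constitutive core spanned 173-fold, against 19.1-fold over the cap genes. Over internal exons only the spans were 67.7-fold, from PSMA4 to PSMB4, and 19.5-fold.

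**Figure D1:**
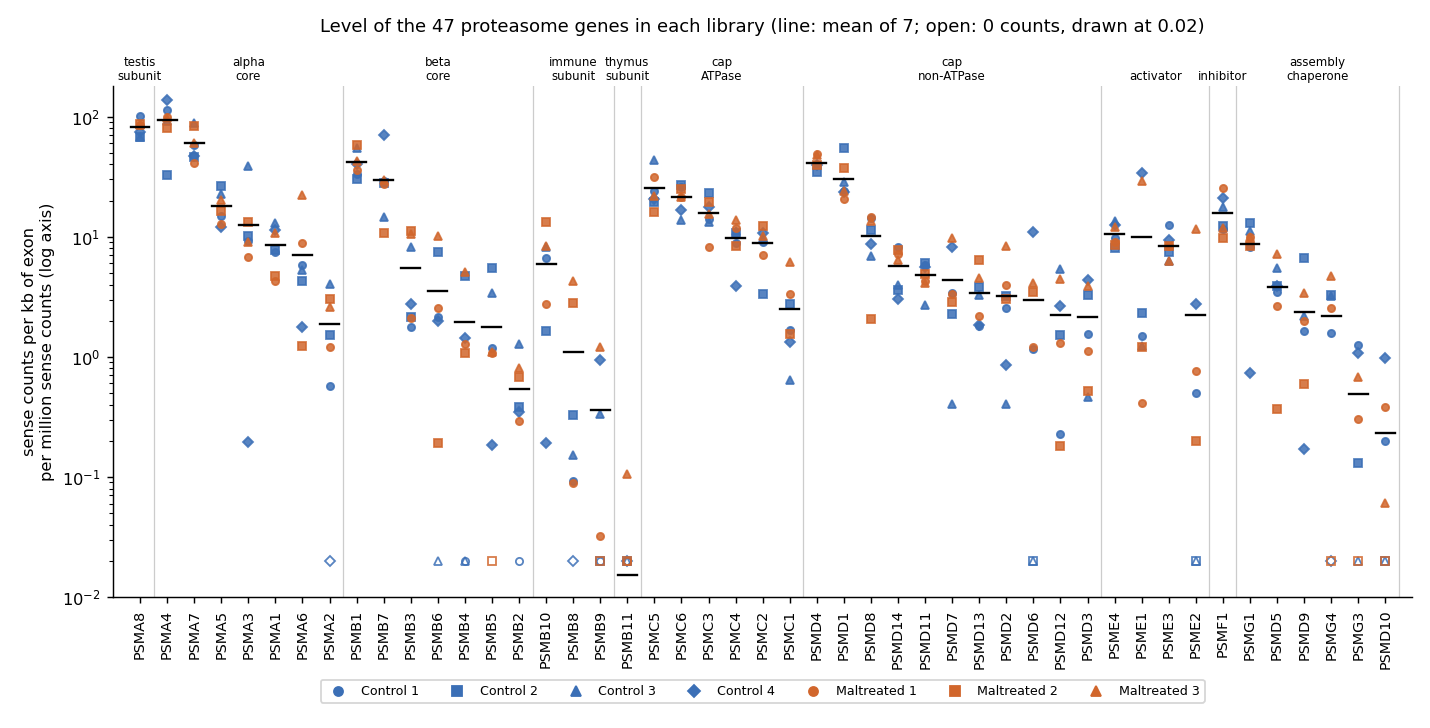
Level of each of the 47 members in each library, in CPM per kb of exon on a log axis, grouped by role; lines are means of 7 libraries and open symbols are libraries with 0 counts, drawn at 0.02. PSMA4, PSMA8 and PSMA7 average 93.4, 81.4 and 60.8, while PSMB2 averages 0.540 and PSMB11 has counts in Maltreated 3 only.

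Among the cap ATPases, PSMC5 was highest over whole genes at 24.1, 19.6, 43.9 and 20.5 in Control and 31.3, 16.0 and 21.7 in Maltreated libraries (25.3 ± 9.48, SD, n = 7). Its locus overlaps FTSJ3 on the opposite strand, and since reads are split by strand, its sense counts exclude reads of FTSJ3 as far as the library keeps strand. HTR2B overlaps PSMD1 in the same way. PSMC6 followed at 21.6 ± 4.93 and PSMC3 at 15.9 ± 4.77, and PSMC1 was lowest at 2.49 ± 1.85 (SD, n = 7 for each). All 6 ATPases had counts in every library.

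Among the cap non-ATPases, PSMD4, a receptor for ubiquitin chains, had 39.9, 34.8, 39.7 and 39.3 in Control and 48.8, 39.4 and 47.7 in Maltreated libraries (41.4 ± 5.04, SD, n = 7). Its log2 CPM had an SD of 0.169 over the libraries, the smallest among the tested members, followed by 0.210 for PSMA8. PSMD1, a large scaffold of the cap base, averaged 30.3 ± 11.9 (SD, n = 7), and the other 9 genes lay between 2.16 for PSMD3 and 10.2 for PSMD8. PSMD14, the enzyme that cuts ubiquitin chains off the substrate, averaged 5.76 ± 2.16 (SD, n = 7) and had a count in every library. PSMD6, a subunit of the lid, was the most uneven of this group, with 1.17, 0, 0 and 10.99 in Control and 1.20, 3.49 and 4.10 in Maltreated libraries. In Control 4, exons 6 and 7 of PSMD6 carried 35 and 38 of its counts and exons 1 to 5 none.

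PSME4, the activator known for histone breakdown in male germ cells, had the highest mean of the 4 activators over whole genes. It had 9.68, 8.06, 13.6 and 12.6 in Control and 9.01, 8.54 and 12.2 in Maltreated libraries (10.5 ± 2.22, SD, n = 7). PSME3, the nuclear activator, was close to it at 8.41 ± 2.18 (SD, n = 7). The mean of PSME1, described below, lay between them. It was above 80.8% of the genes with a count, against 81.5% for PSME4 and 78.6% for PSME3. PSMF1, an inhibitor of the isolated core and a partner of its transport, had 11.6, 12.2, 17.8 and 21.1 in Control and 25.6, 9.73 and 11.9 in Maltreated libraries (15.7 ± 5.92, SD, n = 7). PSMG1, a chaperone of alpha ring assembly, led the assembly genes over whole genes with 8.14, 13.1, 11.2 and 0.735 in Control and 9.90, 8.41 and 9.97 in Maltreated libraries, and Control 4 was its only library under 8. The other 5 chaperones averaged from 0.232 for PSMD10 to 3.85 for PSMD5, a chaperone of the cap base.

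Over whole genes the balance of core and cap was even on average, whereas over internal exons only it lay at -0.71 ± 0.79 (log2, SD, n = 7). Per library, the median level of the 14 constitutive core genes was compared with that of the 17 cap genes, as a log2 ratio. The ratio was -0.31, 0.99, 0.98 and -1.80 in Control and -0.36, 0.26 and 0.12 in Maltreated libraries, a mean of -0.02 ± 0.96 (SD, n = 7), above 0 in 4 libraries. Control libraries averaged -0.03 ± 1.33 (SD, n = 4), Maltreated libraries averaged 0.01 ± 0.33 (SD, n = 3), and the groups overlapped. Summed over all exon entries the core was ahead in every library, with 549.8 to 821 CPM against 338 to 443 CPM for the cap. These sums count an exon again where it is entered more than once or in overlapping versions. PSMA4, for example, has 15 entries for 8 exons. The sums therefore do not show which part is ahead when each exon is counted once. Over unique exons the log2 ratio of medians was -0.23 ± 0.81 (SD, n = 7).

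Where reads fell along the genes differed strongly from exon length. In the 45 members with at least 3 exons, the first and last exons together held a median of 13.1% of the counts and 41.7% of the exon length, and in 43 of them (95.6%) the share of counts was below the share of length. The same held for 89.5% of the 15667 genes of the table with at least 3 exons, so the members shared it with most genes. In PSMA8 the last exon made up 55.7% of the length and held 0.133% of the counts, and its exon 5, the leading exon in 4 libraries, held 19.2 to 41.0%. In PSMA5 the end exons made up 85.2% of the length and held 1.03% of the counts. A level over the whole annotated length is thus lowered in genes with long end exons.

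Over internal exons alone, an alternative chosen after the data were seen, PSMA8 was the highest member. It stood at 300.4, 204, 198 and 219 in Control and 248, 258 and 252 in Maltreated libraries (239.8 ± 35.9, SD, n = 7), and was first in 6 libraries. PSMA4 followed at 154 ± 55.2 and was first in Control 4. PSMA5 moved from the tenth rank over whole genes to the third, at 119 ± 36.1, ahead of PSMA7 at 106 ± 40.6 (SD, n = 7 for each). The groups overlapped in PSMA8. In 3 roles the member with the highest mean changed: PSMC6 (35.6 ± 8.12) passed PSMC5 (27.1 ± 11.1), PSME3 (27.3 ± 7.51) passed PSME4 (15.2 ± 3.19) and the chaperone PSMD9 (14.02 ± 12.4) passed PSMG1 (13.3 ± 5.86; SD, n = 7 for each).

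**Figure D2:**
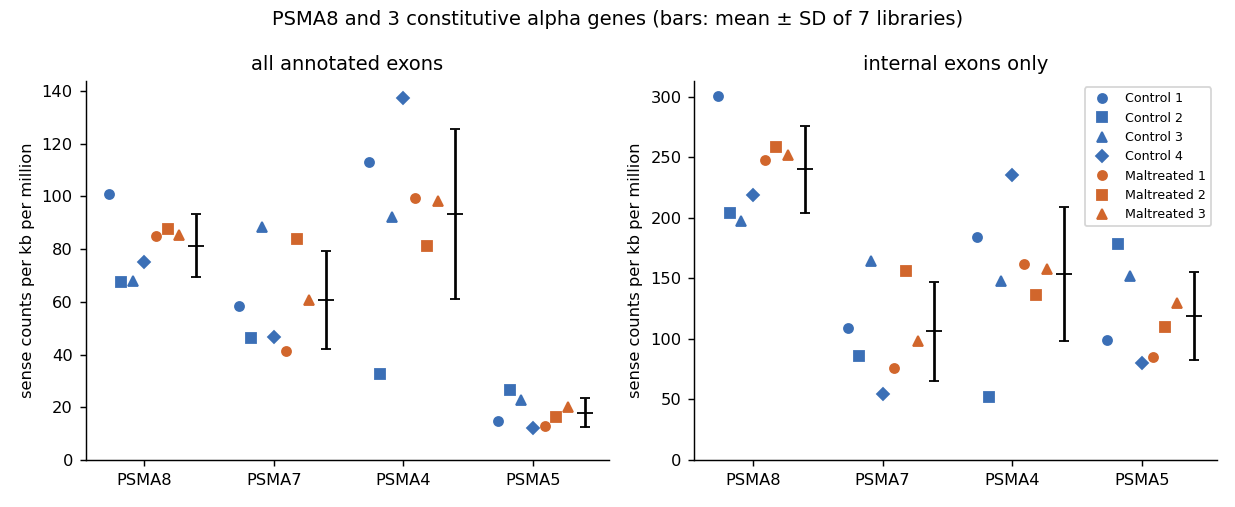
Levels of PSMA8 and of the constitutive alpha genes PSMA7, PSMA4 and PSMA5 in each library, in CPM per kb, over all annotated exons and over internal exons only; bars are the mean ± SD of 7 libraries. PSMA8 averages 81.4, below the 93.4 of PSMA4, over all exons, and 239.8, above the 154 of PSMA4, over internal exons.

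Some members were read mainly from a short stretch of the transcript. In PSMD4, exon 2 held between 26.4 and 63.6% of the counts at 10.6% of the length and led in 6 libraries. In PSMD1, which has 25 exons, exon 18 held 15.6 to 58.1% at 3.54% of the length, led in 5 libraries, and was passed by exon 17 in the other 2. PSME4 had its leading exon, exon 28 of 46, in common in 6 libraries, and PSMA5, PSMB7 and PSMG1 also shared theirs in 6. Such a shared peak was not the rule. For 30 members with at least 3 exons and 350 counts over the libraries, the exon with the most counts over all libraries was taken. That exon led in 5 or more libraries in 9 members, in 3 or fewer in 13, and in all 7 in 0. In some of these 13, such as PSMC2 and PSMF1, another exon led in more libraries.

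**Figure D3:**
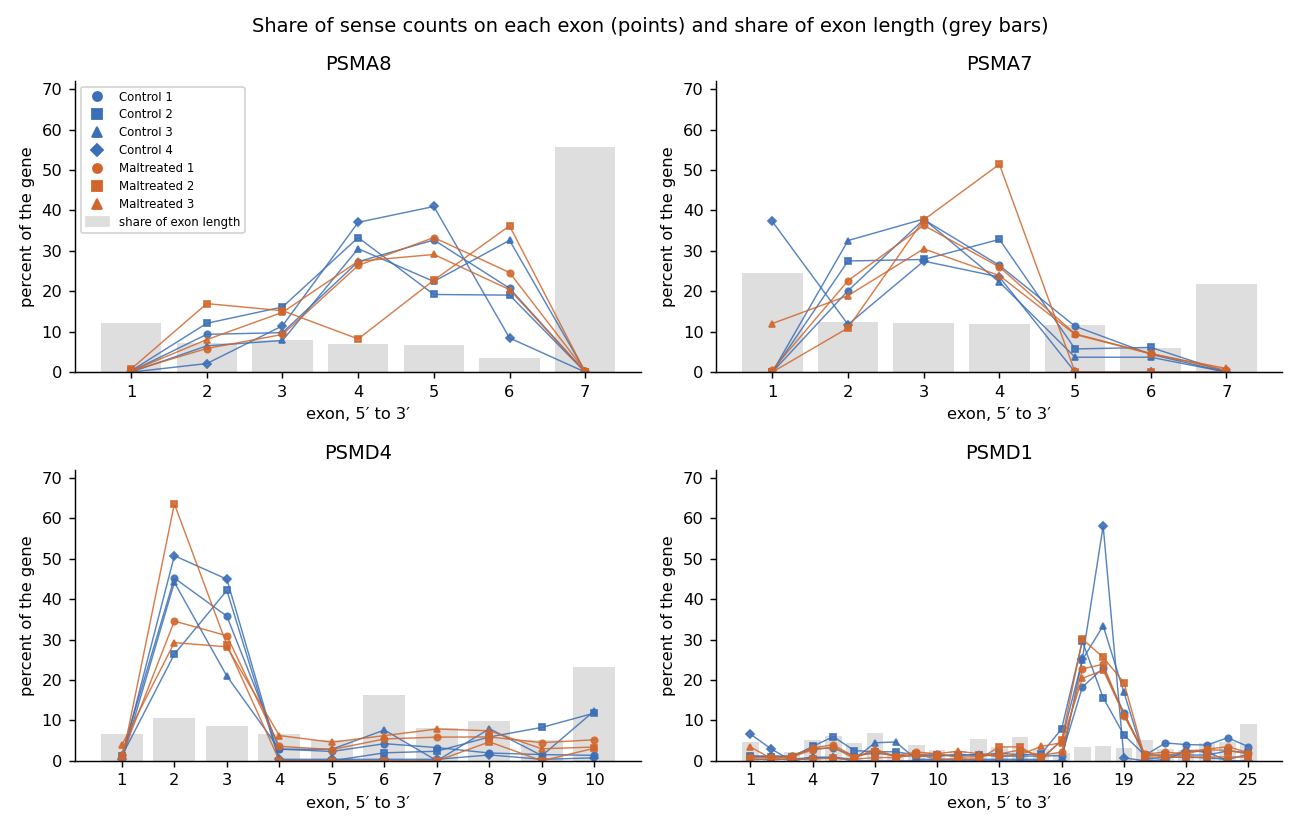
Share of the sense counts of PSMA8, PSMA7, PSMD4 and PSMD1 on each exon, in percent of the gene, for each library (points) beside the share of exon length (grey bars), exons numbered from the 5′ end. The last exon of PSMA8 makes up 55.7% of its length and holds 0.133% of its counts, and exon 2 of PSMD4 holds 26.4 to 63.6%.

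The deposited covered fraction gives the share of a gene's exon bases touched by reads. Its median over libraries was above 50% in 16 members and below 20% in 11. PSMA8 was covered by 36.5, 36, 90.4 and 29.3% in Control and by 98.2, 40.2 and 34.3% in Maltreated libraries, whereas its level ranged from 67.7 to 101. PSMD1 was covered by 100% in 6 libraries and by 16.6% in Control 4. Complete coverage also occurred at low counts: of 329 pairs of a member and a library, 64 (19.5%) in 31 members were covered completely, and 7 of those rested on fewer than 3 counts per exon entry. PSMB4 in Control 4 is an example, with 1 count on each of its 7 exons and complete coverage. How reads spanning exons entered the covered fraction was not given in the sources used here, and it is not used as a level.

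Antisense counts were low in most members. Of the 47, 44 had an antisense count, and antisense made up a median of 3.74% of a member's counts, against 9.76% over all genes with a count. It exceeded 20% in 4 members. PSMB9 had 33 antisense and 21 sense counts, with 17 of the antisense counts in Control 2 and 12 in Maltreated 3. PSMD3 had 156 of its antisense counts in Control 4 and none in Control 3, Maltreated 2 and Maltreated 3, and antisense made up 46.0% of its counts. PSMD14 reached 26.3%, with 192 antisense counts in Maltreated 1, and PSMB11 reached 77.8% on 2 sense counts. Elsewhere, 604 of the 676 antisense counts of PSMA5 came from Control 4 and 210 of the 289 of PSMB1 from Maltreated 2.

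Testis and immune subunits were set against the constitutive subunits they replace within each library, so that depth cancels. Each ratio is the log2 of the counts per kb of both genes, with 0.5 counts added to each, and was tested against 0 over the 7 libraries with a two-sided exact sign-flip permutation test, adjusted over the 4 ratios. PSMA8 over PSMA7 was 0.79, 0.55, -0.38 and 0.68 in Control and 1.04, 0.06 and 0.49 in Maltreated libraries. Its mean of 0.46 ± 0.48 (SD, n = 7; 1.38-fold) was above 0 in 6 of 7 libraries, with an exact permutation p of 0.0469 and an adjusted p of 0.0833. Control 3, where PSMA7 was at its highest, was the exception. Over internal exons the mean ratio was 1.26 ± 0.59 (SD, n = 7) and above 0 in 7 of 7 libraries, with an adjusted exact permutation p of 0.0625. Neither value passed the threshold of 0.05. With 7 libraries the smallest p that the sign-flip test allows is 0.0156, and a single ratio at that value has an adjusted p of 0.0625. Over internal exons the ratio was at this limit and could not have passed alone.

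All 3 immune subunits averaged below their constitutive counterparts. PSMB10, the immune form of PSMB7 on chromosome 16, was the most abundant of them, at 6.70, 1.65, 8.29 and 0.191 in Control and 13.2 in Maltreated 2, with 2.78 and 8.36 in Maltreated 1 and 3. In Maltreated 2 only exons 1, 2, 6 and 7 of PSMB10 had counts, at 14, 14, 26 and 26. In Control 1 its exon 5 held 9 counts and every other exon exactly 8. Its log2 ratio to PSMB7 was -2.10, -4.02, -0.81 and -7.94 in Control and -3.30, 0.30 and -1.81 in Maltreated libraries. It averaged -2.81 ± 2.68 (SD, n = 7) and was below 0 in 6 of 7 libraries, with an exact permutation p of 0.0312 and an adjusted p of 0.0833. The log2 ratio of PSMB9 to PSMB6 was -5.46, -6.40, 2.07 and -1.04 in Control and -5.72, -1.84 and -3.03 in Maltreated libraries, where a gene without counts enters by the added 0.5 only. It averaged -3.06 ± 3.05 (SD, n = 7), below 0 in 6 of 7 libraries, with an exact permutation p of 0.0625 and an adjusted p of 0.0833. The exception was Control 3, where PSMB6 had no count and PSMB9 had 2. PSMB8 over PSMB5 averaged -1.26 ± 3.498 (SD, n = 7) and was below 0 in 5 libraries, with an exact permutation p and an adjusted p of 0.359. None of the 4 ratios passed after adjustment.

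The low immune genes were carried by few libraries. PSMB8 and PSMB9 are neighbours on chromosome 6, PSMB8 on the minus strand from 33559160 to 33562471 and PSMB9 on the plus strand from 33571989 to 33577683. PSMB8 had 1, 2, 1 and 0 counts in the Control libraries, against 3, 19 and 50 in the Maltreated libraries. The 50 counts of Maltreated 3 were spread over all 6 exons, whereas the 19 of Maltreated 2 all lay on exon 5. PSMB9 had 0, 0, 2 and 5 counts in Control and 1, 0 and 13 in Maltreated libraries, so its 2 highest libraries were Maltreated 3 and Control 4. PSMB11, the form of the thymic cortex, lies next to PSMB5 on chromosome 14 and had 2 counts in Maltreated 3 and 0 elsewhere.

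PSME1 and PSME2, the paired activators induced by interferon, lie beside each other on chromosome 14, from 85358482 to 85361234 and from 85365722 to 85368996. The counts of PSME1 were 14, 12, 7 and 171 in the Control libraries and 12, 7 and 294 in the Maltreated libraries. PSME2 had 4, 0, 0 and 12 in Control and 19, 1 and 101 in Maltreated libraries. PSME1 was thus far above its other libraries in Control 4 and Maltreated 3, and its log2 CPM had the largest SD of all tested members, 1.90. Exons 1 and 2 of PSME1 held 81 counts each of the 171 in Control 4, with 1 count on each of the other 9 exons, while in Maltreated 3 all 11 exons had counts, from 110 on the first to 4 on the last.

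Control 4 and Maltreated 3 were also the libraries with the high leukocyte marker sums given above, 767 and 1174 CPM. CD74, the invariant chain of antigen presentation, stood at 502 and 265 CPM in these 2 libraries and at 1.17 to 9.16 CPM in the others. It alone made up most of the marker sum of Control 4. B2M, the light chain of class I molecules, stood at 115 and 253 CPM against 1.04 to 18.3 CPM, and TAP1, a peptide transporter, at 31.8 and 6.17 CPM against at most 1.93 CPM. TYROBP, a leukocyte adaptor, was at 0 in Control 1, Maltreated 1 and Maltreated 2. Other leukocyte markers went otherwise. AIF1 and FCER1G had no count in Control 4. CD14 and ITGAM stood at 1.88 and 20.7 CPM in Control 4, below their 7.79 and 30.2 CPM in Maltreated 2. C1QB stood at 1.59 CPM in Maltreated 3, below its 2.50 CPM in Control 3. PSMB10 did not have its highest levels in Control 4 and Maltreated 3: it was lowest in Control 4, at 0.188 CPM, and highest in Maltreated 2, at 12.98 CPM. PSMB8 was at 0 in Control 4. The part of leukocyte RNA in the levels of PSME1, PSME2 and PSMB9 was not tested.

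**Figure D4:**
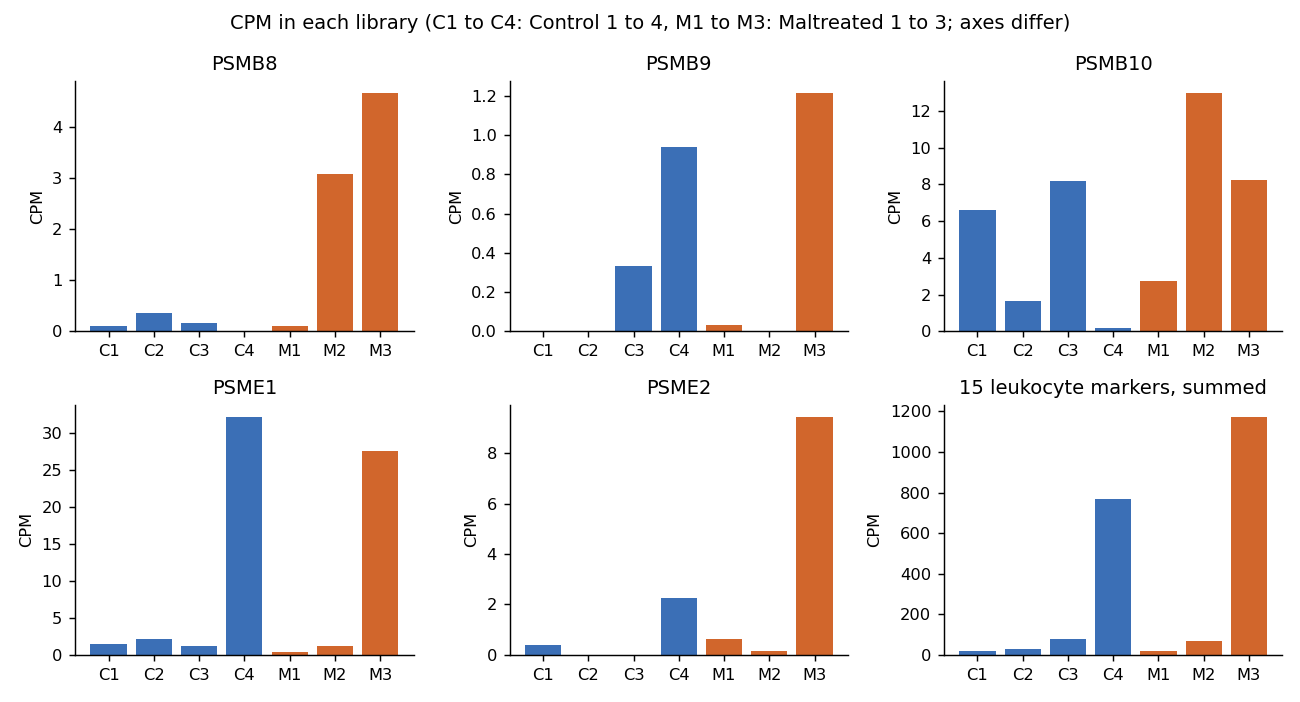
Library-normalised sense counts (CPM) of PSMB8, PSMB9, PSMB10, PSME1 and PSME2 and the sum of 15 leukocyte markers in each library, with axes that start at 0 and differ between panels. PSME1, PSME2, PSMB9 and the markers have their 2 highest bars in Control 4 and Maltreated 3 (767 and 1174 CPM for the markers), and PSMB10 has its highest bar in Maltreated 2.

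The comparison of Maltreated with Control sperm was made for each gene over the whole table with edgeR's quasi-likelihood test and Benjamini-Hochberg adjustment. Of the 39 members tested, 0 passed at an adjusted p of 0.05, and 0% of the 10719 genes tested did. At an unadjusted p under 0.05 there were 0 members, beside 191 genes (1.78%) of the table, and DESeq2's Wald test called 0 members and 3 genes of the table. The groups overlapped in all 39 tested members, whereas 2.1% of all tested genes were higher in every Maltreated library than in any Control library and 1.49% were lower. By sign, 20 members had a positive and 19 a negative log2 fold change, next to 48.7% positive over all genes. The median was 0.01 for the members and -0.02 for all tested genes. Without Control 4 and Maltreated 3, 15 of 38 members were positive, beside 47.1% of all genes tested in that setting.

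The roles showed no common direction. Of the constitutive core, 7 of 12 tested genes were positive and 5 negative, and of the 17 cap genes 9 were positive and 8 negative. All 3 tested activators had values below 0, between -0.25 for PSME3 and -0.02 for PSME1. The 8 members that did not pass the filter on low counts were PSME2, PSMB4, PSMB5, PSMB8, PSMB9, PSMB11, PSMG3 and PSMD10, with 2 to 137 counts each over all libraries.

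In this comparison the values are CPM scaled with normalisation factors (TMM). They count every exon entry, repeated ones included. They therefore compare libraries within a gene and do not rank genes against each other. PSMA8 had 350.5, 224, 230.3 and 245 in Control and 288, 298 and 262 in Maltreated libraries. The means were 262 ± 59.4 (SD, n = 4) and 283 ± 18.7 (SD, n = 3), and the Maltreated libraries fell inside the Control range. The log2 fold change was 0.11 ± 0.26 (SE), with an edgeR adjusted p of 0.999, which was also the smallest adjusted p of the whole table. PSMA7 was at 0.01 ± 0.42 (SE), and the PSMA8 to PSMA7 ratio differed by 0.12 between the group means on the log2 scale (exact permutation p = 0.80 over 35 splits, adjusted p = 0.80). That difference turned to -0.14 without Control 3 and to -0.13 without Maltreated 1. The smallest p this design allows for such a difference is 0.0571.

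The other ratios did not separate the groups either. PSMB8 over PSMB5 had -3.16, -3.76, -3.94 and -1.69 in Control and -3.40, 5.19 and 1.91 in Maltreated libraries, a difference of 4.37 (exact permutation p = 0.171, adjusted p = 0.686). Maltreated 1 lay among the Control libraries, and the other 2 values rest on the counts of PSMB8 and on 0 and 12 counts of PSMB5. The difference was 2.39 without Maltreated 2 and 2.12 with 5 counts added in place of 0.5. PSMB9 over PSMB6 differed by -0.82 (exact permutation p = 0.686, adjusted p = 0.80), which turned to 0.77 without Control 3 and to 0.28 without Maltreated 1. For PSMB10 over PSMB7 the difference was 2.12 (exact permutation p = 0.40, adjusted p = 0.80), which was 0.71 without Control 4 and 1.16 without Maltreated 2.

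PSMD2, the second scaffold of the cap base and a docking site for ubiquitin carriers, had the smallest unadjusted p of the members. Its TMM-scaled CPM was 7.68, 9.24, 1.20 and 2.42 in Control and 11.9, 9.03 and 22.4 in Maltreated libraries. The log2 fold change was 1.49 ± 0.92 (SE), with an edgeR unadjusted p of 0.136, and Maltreated 2 fell below Control 2. PSMA6, an alpha subunit, had 6.51, 4.53, 5.81 and 1.86 in Control and 9.61, 1.34 and 21.9 in Maltreated libraries, so that both the lowest and the highest library were Maltreated. Its log2 fold change of 1.22 ± 1.02 (SE) was 0.21 without Maltreated 3 and -0.04 without Control 4 and Maltreated 3. PSMC1, a cap ATPase, and PSMB3, a structural beta subunit, had log2 fold changes of 1.13 ± 1.03 and 1.05 ± 1.09 (SE). PSMC1 had 2.77, 4.35, 1.02 and 2.05 in Control and 5.36, 2.51 and 8.94 in Maltreated libraries, and PSMB3 had 1.39, 1.63, 6.32 and 2.05 in Control and 1.64, 8.70 and 7.38 in Maltreated libraries. In both, at least 1 Maltreated library lay within the Control range. Without Maltreated 3 the value of PSMC1 was 0.62, and without Maltreated 2 that of PSMB3 was 0.64.

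In the other direction PSMA1, an alpha subunit, had 28.6, 28.1, 48.7 and 40.4 in Control and 15.9, 17.6 and 36.02 in Maltreated libraries. Its log2 fold change was -0.65 ± 0.51 (SE), with an edgeR unadjusted p of 0.232, and Maltreated 3 was above Control 1 and Control 2. The fold change was -1.13 without Maltreated 3. PSMB7 had 29.6, 27.5, 14.5 and 67.8 in Control and 27.4, 10.7 and 26.6 in Maltreated libraries, a log2 fold change of -0.69 ± 0.63 (SE) that was -0.16 without Control 4. PSMA5 had 254, 436, 381 and 194 in Control and 215, 277 and 305 in Maltreated libraries, and PSME3 had 140, 78.8, 68.2 and 98.4 in Control and 91.2, 90.3 and 61.2 in Maltreated libraries. Both had log2 fold changes of -0.25, with SE of 0.32 and 0.37, and overlapping groups. That of PSMA5 was -0.05 without Control 2 and that of PSME3 -0.017 without Control 1.

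**Figure D5:**
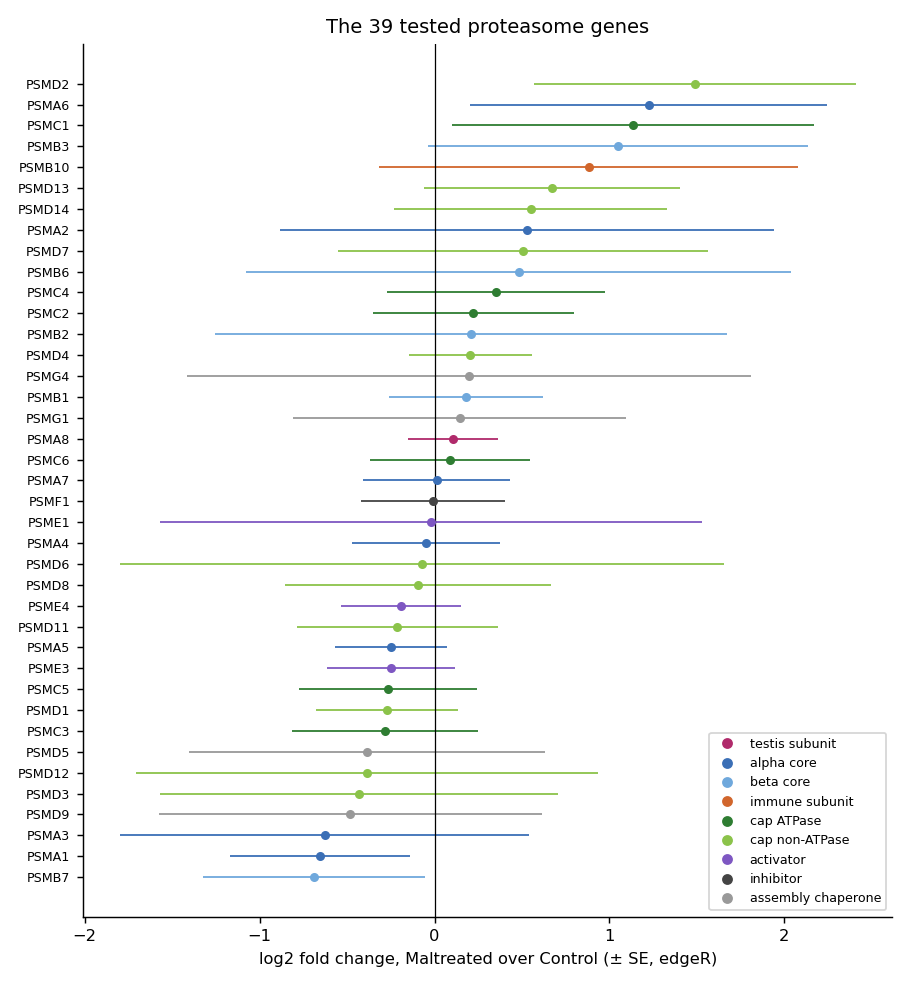
Log2 fold change of Maltreated over Control with its SE from edgeR for the 39 tested members, coloured by role and ordered by value. The values run from 1.49 for PSMD2 to -0.69 for PSMB7, PSMA8 lies at 0.11, and no member passed the test.

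Genes that work with the proteasome were read from a list of 32 symbols of ubiquitin genes, shuttle factors, cap-bound enzymes and regulators of proteasome genes, of which 29 were in the table and 26 could be tested. None passed the edgeR test. By sign 18 were positive and 8 negative, with a median log2 fold change of 0.34, beside 48.7% positive and a median of -0.02 over all tested genes. The groups did not overlap in 1 of them, beside the 2.1% higher and 1.49% lower given above for all genes. This was PITHD1, a small protein known to bind the proteasome, at 3.31, 3.44, 2.39 and 1.68 TMM-scaled CPM in Control and 7, 5.52 and 11.6 in Maltreated libraries (log2 fold change 1.57 ± 0.92, SE; edgeR unadjusted p = 0.116, adjusted p = 0.999). With antisense counts added its log2 fold change was 0.76. The log2 fold change of UBA6, a ubiquitin-activating enzyme, was 1.19 ± 0.58 (SE), and that of NFE2L1, the transcription factor that raises proteasome genes when the protease is inhibited, was 2.15 ± 1.13 (SE), with edgeR unadjusted p of 0.067 and 0.0847. Without Maltreated 3, the value of UBA6 was 0.44. The groups overlapped in both: UBA6 had 37.2, 34.8, 19.5 and 16.2 in Control and 51.2, 22.4 and 111 in Maltreated libraries. NFE2L1 had 1.92, 3.99, 0.171 and 1.86 in Control and 3.92, 8.36 and 14.2 in Maltreated libraries, where Maltreated 1 lay just under Control 2.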

How the data were processed

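The submitters' processing notes name STAR, featureCounts and bedtools, without version or role. The deposited counts are whole numbers of reads overlapping each exon entry, with no normalisation, and the authors' covered fraction is covered bases over exon length. Base numbers per exon and per gene, as deposited, gave the lengths. Sense counts of the series table equalled the sums over exon entries in all 18282 genes; how a read on several exons was counted was not given in the sources used here. Of the members, 9 have repeated entries. Another 2 genes listed on both strands were left out.

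The gene test was edgeR's (4.0.16, R 4.3.3) on TMM-scaled counts after filterByExpr (minimum count 10, minimum total 15), by quasi-likelihood, with Benjamini-Hochberg adjustment over 10719 genes, threshold 0.05. The scripts were tested on simulated data, where recovery was required only at a spread between samples well below that of these counts. The common biological coefficient of variation of the real counts was 0.858 in edgeR. The power of the gene test at that spread is not given here. Ratios used exact permutation tests (SciPy 1.17.1). The proteasome genes, the marker lists, the list of partner genes and the tests were chosen with earlier results of these data known. Values in every library are given for the testis, immune and thymus subunits and their counterparts, the highest member of each role, the 4 members with the smallest unadjusted p in each direction, and the 3 most variable members. Of the partner list, the 3 genes with the smallest p are named. Other genes were named after their values were seen. The same numbers in both groups were not treated as pairs in the main test: correlations of their deviations were 0.11, 0.10 and -0.02. For numbers 1 and 2, each library still correlated best with its namesake in the other group. These values do not settle whether the libraries are paired. Alternatives were DESeq2 1.42.0, other scaling, no filter, a replicate block, added antisense counts, unique exons, the longest exon, a pseudocount of 5 and leaving out libraries; leaving out Control 4 and Maltreated 3 together and using internal exons only were added after the data were seen.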

Additional observations from a re-analysis of the deposited data

Results flagged for a closer look

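In the 4 Control libraries, 51 member levels and ratios were screened for a library that stood apart from the other 3, and 6 did. The cut-off used gives about 5% of such cases by chance only where values are normally distributed. Several of these levels lie at or near 0, and the screen was not run over all genes. No excess over chance can therefore be read from the 6. PSME1 had a level of 34.04 CPM per kb in Control 4, against 1.23 to 2.30 in the other Control libraries, and PSMD6 had 10.99 there, against 0 to 1.17. PSMD1 was high in Control 2, at 54.4 against 23.4 to 28.5, and in the same library PSMD4 was low, at 34.8 against 39.3 to 39.9. Control 3 was high in PSMB3, at 8.20 against 1.76 to 2.75, and low in PSMD11, a cap lid subunit, at 2.71 against 5.59 to 6.07. Control 4 also had the highest leukocyte marker sum of the Control libraries, 767 CPM, and Control 2 the highest epithelial marker sum, 297 CPM. Their part in these levels was not tested.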

How the results depend on the processing

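Under all alternatives run, 0 members passed the gene test. DESeq2's Wald test called 3 genes of the table, and edgeR called 0 under every other setting and without each library. The replicate block gave 0 called genes and 21 positive members, and changed no call; positive members numbered 17 to 25 when each library was left out. Without a filter, 27 of 47 members were positive. The members which this setting adds have 2 to 137 counts each, and both counts of PSMB11 lie in Maltreated 3. The share over all genes without a filter is not given here, so the 27 is not read as a direction. The longest exon alone turned the PSMA8 to PSMA7 ratio to -3.76 (adjusted exact permutation p = 0.0312); the longest exon of PSMA8 is its last, with 0.133% of its counts. It also took PSMB9 to PSMB6 to -2.68 (adjusted exact permutation p = 0.0312). The longest exon of PSMB9, of 411 bases, had 0 counts in every library, and that of PSMB6 has 223 bases. With 0.5 counts added, this ratio falls below 0 in every library whatever the count of PSMB6. Its sign was thus fixed in advance, and no conclusion is drawn from its p. The longest exon also turned the group difference of PSMA8 to PSMA7 to -0.66 and that of PSMB10 to PSMB7 to -1.80, and the cause was not tested. Leaving out a library turned the group difference of PSMA8 to PSMA7 (-0.14 to 0.36) and of PSMB9 to PSMB6 (-2.05 to 0.77); the values that turned were -0.14 and 0.77 without Control 3, and -0.13 and 0.28 without Maltreated 1. The PSMA6 log2 fold change turned to -0.038 without Control 4 and Maltreated 3. Mean ratios kept their sign without each library, at 0.37 to 0.60 for PSMA8 to PSMA7, -2.34 to -0.82 for PSMB8 to PSMB5, -3.91 to -2.50 for PSMB9 to PSMB6 and -3.33 to -1.96 for PSMB10 to PSMB7, whereas the core to cap ratio ran from -0.19 to 0.28 and was -0.71 over internal exons. The core to cap ratio of longest exons could not be computed, as a median was 0. Counts of PSMB8, PSMB9 and PSMB11 are too few to resolve group differences.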
